A study of Mus musculus with 2 samples.

Results

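The receptors for serotonin, dopamine, noradrenaline and adrenaline, and histamine are described here in mouse hippocampus at 10 days of age. The members were taken by gene symbol, without regard to their values: every annotated gene named Htr1 to Htr7, Drd1 to Drd5, Adra1 or Adra2, Adrb, or Hrh1 to Hrh4, with its subtype number or letter. The 32 genes found, of 55536 annotated genes in all, are 14 serotonin, 5 dopamine, 9 adrenergic and 4 histamine receptor genes, and they lie on 15 chromosomes. The tissue came from B6CASTF1/J mice, an F1 cross between the inbred strains C57BL/6J and CAST/EiJ, and the labels name it as a layer of the hippocampus. There is 1 group of 2 total RNA libraries, called biological replicates in the labels, each made from 300 ng of RNA and each labelled with 3 males, though whether the RNA of those animals was pooled is not spelled out. No genotype other than the hybrid cross and no treatment is named, so there is no comparison between conditions. What is given instead is each receptor's level, its spread over both libraries and how far the libraries lie apart.

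These receptors read the signals of the ascending amine systems, whose cell bodies lie in the raphe nuclei, the midbrain, the locus coeruleus and the tuberomammillary nucleus and whose axons reach the hippocampus. All but one family are receptors coupled to G proteins: Gs raises cyclic AMP, Gi lowers it and opens potassium channels, and Gq releases calcium through phospholipase C. The exception is the serotonin 3 receptor, a cation channel opened directly by serotonin. In the hippocampus these receptors sit on principal cells, interneurons, glia and incoming axons, and they are known for setting excitability and for gating synaptic plasticity.

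The library labelled male, replicate 2, goes against its label. Xist, the RNA of the inactive X chromosome, had 25 counts in replicate 1 and 30841 counts in the library labelled male, replicate 2, while Ddx3y of chromosome Y had 2164 and 0 counts. The levels of the receptor genes are therefore given for each library, so that replicate 1 can be read alone, while pathway and marker genes are mostly given as the mean ± SD over both. The libraries held 32035705 expected counts in replicate 1 and 29747193 in replicate 2. All 4 markers of glutamatergic neurons were detected, with a median of 601 ± 28.4 TPM (SD, n = 2). So were all 4 of dentate granule cells, with a median of 25.4 ± 1.12 TPM. The 4 neocortex and 5 thalamus markers listed were all detected too, with medians of 18.3 ± 0.368 and 9.96 ± 0.424 TPM. Which cells these came from was not tested. Markers of several cell types differed between the libraries. Called lower in replicate 1 were 3 of the 4 glutamatergic, 2 of 4 dentate granule cell, 3 of 4 microglia and 2 of 4 endothelium markers, with median log2 ratios of -0.10, -0.18, -0.18 and -0.08. Astrocyte and striatal markers each had 1 called higher and 1 called lower in replicate 1, and thalamus markers had 1 called higher. No GABAergic neuron or neocortex marker was called. Over all genes tested, 8.77% were called in either direction. The 9 choroid plexus markers summed to 13.5 TPM in replicate 1 and 359 TPM in replicate 2, and 8 of the 9 were called lower in replicate 1, at an adjusted p under 0.05 by the exact binomial test that is described with the library comparison. All 5 myelin markers were also called lower in replicate 1, their median log2 ratio being -0.87.

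Levels are in TPM, transcripts per 1000000, a unit that divides reads by transcript length and scales each library to the same sum, so that it can be set side by side between genes. The authors deposited it by 2 routes from the same reads, an alignment-based gene and transcript table, which gives the levels unless another is named, and a FASTQ-based transcript table. A gene was counted as detected at 1 TPM or more in both libraries. By this rule 23 of the 32 receptor genes were detected, or 71.9%, against 13062 of the 22015 nuclear protein-coding genes, or 59.3%. The detected receptors were low: their median was 3.44 TPM, against 15.7 TPM for the detected nuclear protein-coding genes. Summed over all 32 genes the receptors gave 126 TPM in replicate 1 and 128 TPM in replicate 2. Of the 32 genes, 10 were over 5 TPM in both libraries and 2, Adra1d and Htr2c, were over 10 TPM in both. Since this is bulk tissue, a low level in every cell and a high level in few cells cannot be told apart, and neither can fewer cells and less RNA per cell.

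**Figure D1:**
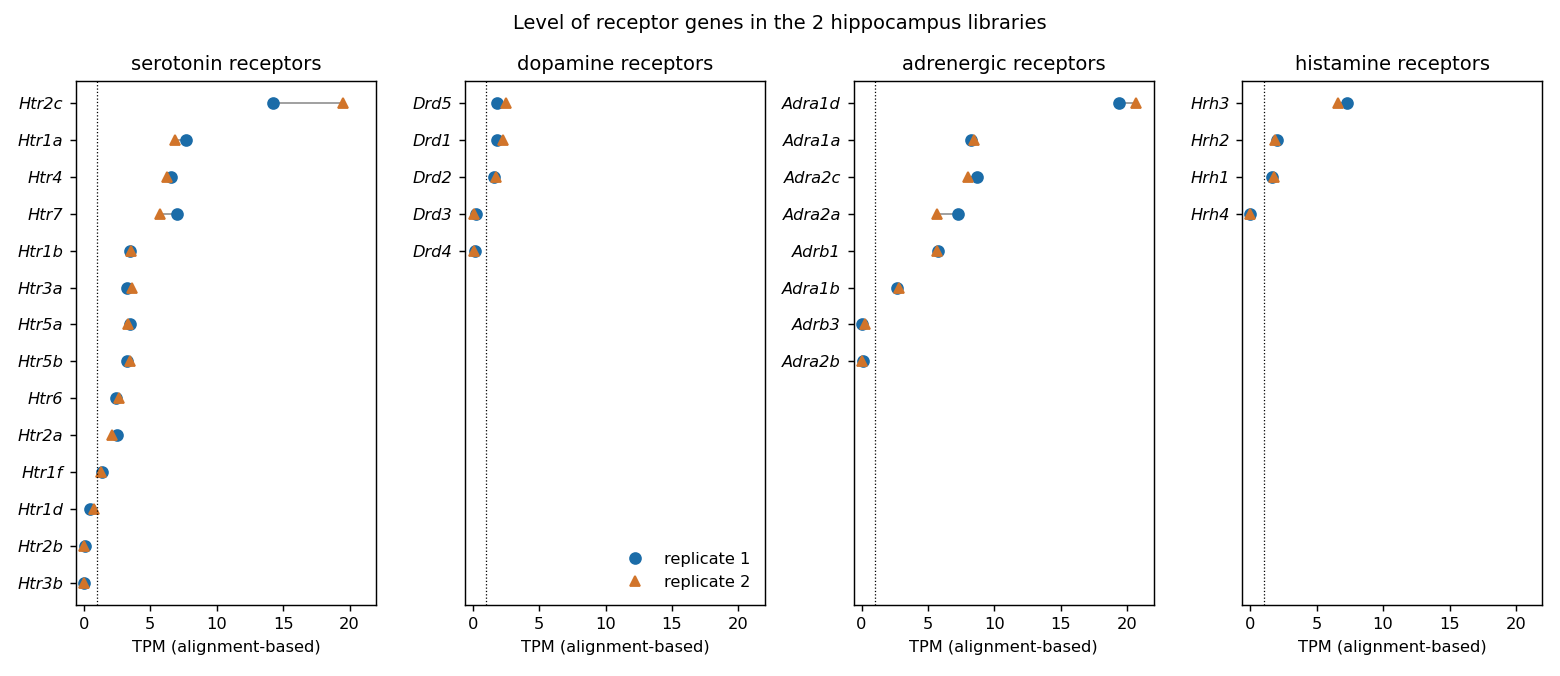
TPM of the receptor genes described here in replicate 1 (circles) and replicate 2 (triangles), one panel for each amine, genes ordered by mean TPM; the dotted line marks 1 TPM. Htr2c and Adra1d stand above the other receptors, Htr2c at 14.26 and 19.47 TPM and Adra1d at 19.37 and 20.66 TPM.

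Among the serotonin receptors, 11 of 14 were detected and Htr2c was the highest. Htr2c, a Gq-coupled receptor known for its edited messenger RNA and for its abundance in the choroid plexus, lies on chromosome X (chrX:146962513-147197277, mm10). It had 14.26 TPM in replicate 1 and 19.47 TPM in replicate 2, from 1416 and 1776 counts, and its mean of 16.9 TPM was at percentile 71.8 of nuclear protein-coding genes. Both values were above both values of every other serotonin receptor, and the library labelled male, replicate 2, was the higher one. Most of its RNA was assigned to the transcript Htr2c-201, which encodes 459 residues. That transcript held 76.6 ± 0.738% of the gene's FASTQ-based TPM and 67.0 ± 3.78% of its alignment-based TPM (SD, n = 2). Htr2c-207 held 12.7 ± 3.00% in the FASTQ-based table and 24.6 ± 0.310% in the alignment-based one. Htr2c-207 leaves out a stretch of 95 coding bases, and its annotated reading frame is 172 residues long. That stretch (chrX:147169676-147169770, plus strand, mm10, from the GENCODE M21 transcript) is shown because it separates these transcripts and holds, in capitals, the codons of residues 157 to 161, the part of the second intracellular loop known for adenosine-to-inosine editing:
Htr2c-201 only: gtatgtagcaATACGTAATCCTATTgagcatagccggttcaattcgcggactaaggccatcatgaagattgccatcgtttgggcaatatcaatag
Editing itself was not measured here. The stretch was compared between Htr2c-201 and Htr2c-207 only, and whether the gene's other transcripts hold it was not checked here. In both tables and both libraries Htr2c-201 held the largest share of the gene.

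The other Gq-coupled serotonin receptor that was detected was Htr2a, the main target of classical psychedelic drugs. It had 2.48 TPM in replicate 1 and 2.14 TPM in replicate 2, from 296 and 237 counts. Htr2b, best known from heart valve and gut, had 3 and 0 counts and was not detected.

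The Gi-coupled serotonin receptors were led by Htr1a, the inhibitory receptor that marks pyramidal and granule cells of the hippocampus and also serves as an autoreceptor in the raphe. Htr1a (chr13:105443639-105448122, mm10) had 7.68 TPM in replicate 1 and 6.82 TPM in replicate 2, from 730 and 602 counts. It stood second among serotonin receptors, and both its values lay just above both of Htr4. Htr1b, a receptor of axon terminals, had 3.50 and 3.54 TPM in replicates 1 and 2. Htr5a, another Gi-coupled receptor, had 3.50 and 3.33 TPM. These genes met at 3.50 TPM and were not separate. Htr1f, a target of drugs against migraine, was the lowest detected serotonin receptor at 1.34 and 1.26 TPM, from 72 and 63 counts. Htr1d, its close relative, fell short of the limit at 0.44 TPM in replicate 1 and 0.79 TPM in replicate 2, from 27 and 25 counts. Its nearly equal counts and unequal TPM came with 2.00 counts in replicate 2 assigned to a short processed transcript, Htr1d-204, which held 48.1% of the alignment-based TPM there and 0 in the FASTQ-based table.

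The 3 Gs-coupled serotonin receptors were all detected. Htr4, a receptor known for promoting acetylcholine release and memory, had 6.52 TPM in replicate 1 and 6.26 TPM in replicate 2. Htr7, a receptor tied to circadian phase shifts, had 7.01 TPM in replicate 1 and 5.72 TPM in replicate 2, from 415 and 322 counts. The Htr7 values fell on either side of those of Htr4, so these genes were not separated. Htr6, a receptor of primary cilia, was lower, at 2.41 and 2.61 TPM. It overlapped Htr2a and lay below both values of Htr5b.

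The gene total of Htr7 rested in large part on transcripts that the annotation marks for nonsense-mediated decay, the pathway that destroys messages with an early stop codon. These held 62.5 ± 1.42% of the gene's FASTQ-based TPM and 48.2 ± 1.35% of its alignment-based TPM (SD, n = 2). Htr7-204 was one of them, with 22.3% and 29.8% of the FASTQ-based TPM in replicates 1 and 2, and 30.7% and 35.1% of the alignment-based TPM. Compared with the full-length Htr7-202, of 448 residues, it holds an extra exon of 58 bases that ends its reading frame after 198 residues. Htr7-202 is 3057 bases long and Htr7-204 is 3135 bases long, so this exon is not their only difference. The start of that exon up to the stop codon, in capitals, is shown because it is what places this RNA outside the full-length class (chr19:36041564-36041612, minus strand, mm10, from the GENCODE M21 transcript):
Htr7-204 extra exon: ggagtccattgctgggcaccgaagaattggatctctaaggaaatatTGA
The other such transcript with over 10% in every column was Htr7-206, at 31.9 ± 0.259% of the FASTQ-based TPM and 15.3 ± 1.81% of the alignment-based TPM. Protein-coding transcripts of Htr7 alone gave 3.76 TPM in the FASTQ-based table, against 10.1 TPM for all its transcripts there.

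The ion channel class was Htr3a alone. Htr3a encodes the subunit that forms a channel by itself, and in cortex and hippocampus it marks a class of interneurons that arise from the caudal ganglionic eminence. It had 3.27 TPM in replicate 1 and 3.61 TPM in replicate 2, from 135 and 139 counts. Htr3b, the subunit that joins Htr3a in mixed channels, had 0 counts in both libraries of the alignment-based table, which allows up to 3 counts in each, and 5.00 and 2.00 estimated counts in the FASTQ-based table. The 5 markers listed for interneurons of this kind were all detected, the highest being Cck, at 205 ± 3.07 TPM (SD, n = 2), and the lowest Vip, at 3.75 ± 0.219 TPM. One of them, Prox1, at 48.6 ± 1.32 TPM, is also listed for dentate granule cells. Which cells the RNA of these markers came from was not tested.

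Htr3a is annotated with 2 transcripts that differ in their coding sequence by 18 bases, known in mouse as the long and the short form of the subunit. The short form, Htr3a-202, of 483 residues, held 79.0 ± 3.47% of the FASTQ-based TPM and 79.5 ± 3.91% of the alignment-based TPM. The long form, Htr3a-201, of 489 residues, held 23.5% and 18.5% of the FASTQ-based TPM in replicates 1 and 2, and 17.7% and 23.3% of the alignment-based TPM. Both tables and both libraries gave the short form the larger share. The junction is shown in both forms, with the 18 bases of the long form in capitals and 15 bases on either side (chr9:48899991-48900008, minus strand, mm10, from the GENCODE M21 transcripts):
Htr3a-201: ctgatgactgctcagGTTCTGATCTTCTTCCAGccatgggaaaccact
Htr3a-202: ctgatgactgctcagccatgggaaaccact

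Htr5b, which is intact in mouse while the human gene is interrupted, was given no coupling class. It had 3.27 TPM in replicate 1 and 3.43 TPM in replicate 2, from 130 and 127 counts. Its level overlapped that of Htr5a. In order of mean TPM the serotonin receptors ran Htr2c, Htr1a, Htr4, Htr7, Htr1b, Htr3a, Htr5a, Htr5b, Htr6, Htr2a, Htr1f, Htr1d, Htr2b and Htr3b. Of the 13 neighbouring pairs in this order, 7 were separate, meaning that both values of one gene exceeded both of the next, and 6 overlapped. From Htr1b to Htr5b no neighbours were separate.

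The dopamine receptors were the lowest family, at 5.72 TPM in replicate 1 and 6.71 TPM in replicate 2 summed over 5 genes, and 3 of the 5 were detected. Drd5, a Gs-coupled receptor of the D1 type known from hippocampus, had 1.84 TPM in replicate 1 and 2.47 TPM in replicate 2, from 122 and 152 counts. Drd1, the other Gs-coupled member and the marker of the direct pathway of the striatum, had 1.82 and 2.30 TPM in the same libraries. Drd2, the Gi-coupled receptor of the indirect pathway and of dopamine cells, had 1.62 and 1.76 TPM, from 86 and 87 counts. Drd5 and Drd1 overlapped, and Drd2 lay below both. Drd3 and Drd4, both Gi-coupled, were at or under 0.24 TPM in each library and had 3 to 7 counts.

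The deposited level of Drd1 moved against its counts. Its TPM was lower in replicate 1 than in replicate 2, while its counts were 105 in replicate 1 and 83 in replicate 2. A short processed transcript of 405 bases, Drd1-203, held 25.8% of the alignment-based TPM in replicate 1 and 52.6% in replicate 2, from 3.13 and 7.46 counts, and 0 in the FASTQ-based table. The FASTQ-based levels of Drd1 were 1.88 TPM in replicate 1 and 1.70 TPM in replicate 2, below those of Drd2, which were 2.33 and 2.86 TPM. The order of Drd1 and Drd2 thus turned with the table used, while Drd5 led in both. Markers of striatal neurons were also present in this tissue, with all 6 detected at a median of 7.78 ± 0.212 TPM (SD, n = 2); their part in the levels of Drd1 and Drd2 was not tested.

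The adrenergic receptors summed to 53.2 TPM in replicate 1 and 52.3 TPM in replicate 2, close to the serotonin receptors with fewer genes, and 6 of the 9 were detected. The Gq-coupled alpha-1 receptors were the highest class. Adra1d (chr2:131545850-131562283, mm10) had 19.37 TPM in replicate 1 and 20.66 TPM in replicate 2, from 756 and 749 counts, the highest mean of all 32 receptor genes. Its mean of 20.0 TPM was at percentile 74.9 of nuclear protein-coding genes. In replicate 2 alone Htr2c, at 19.47 TPM, came close to it. Adra1a, the alpha-1 receptor of interneurons and smooth muscle, had 8.23 and 8.46 TPM in replicates 1 and 2. Adra1b, a further alpha-1 receptor, had 2.69 and 2.82 TPM. Together these genes gave 59.0 ± 2.96% of the adrenergic receptor TPM (SD, n = 2).

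The RNA of Adra1a was spread over several coding transcripts. Adra1a-202 held 38.2 ± 0.181% of the FASTQ-based TPM and 41.8 ± 0.832% of the alignment-based TPM, and Adra1a-203 held 36.9 ± 4.39% and 34.6 ± 4.53%. These shares overlapped in the FASTQ-based table. For Adra1b, the annotated transcripts Adra1b-202 and Adra1b-204 have the same sequence, so no method can divide reads between them. Its level is therefore given as the gene total. Only Adra1b-204 is annotated as protein-coding, so the protein-coding share of Adra1b used further on rests on an arbitrary, even division.

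The Gi-coupled alpha-2 receptors, which brake noradrenaline release and act on dendrites, held 28.2 ± 2.83% of the adrenergic TPM. Adra2c had 8.67 TPM in replicate 1 and 8.01 TPM in replicate 2, and its values enclosed those of Adra1a. Adra2a, the target of clonidine and guanfacine (chr19:54044151-54048982, mm10), had 7.30 TPM in replicate 1 and 5.66 TPM in replicate 2, from 566 and 416 counts. Adra2b was not detected, with 11 and 4 counts.

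The Gs-coupled beta receptors, which carry the effect of noradrenaline on long-term potentiation, gave 12.8 ± 0.132% of the adrenergic TPM. Most of it came from Adrb1, at 5.76 TPM in replicate 1 and 5.66 TPM in replicate 2, from 350 and 319 counts. Adrb3, the receptor of fat tissue, was not detected, with 2 and 9 counts. The adrenergic order began with Adra1d, Adra1a, Adra2c, Adra2a, Adrb1 and Adra1b, and 5 of the 8 neighbouring pairs of the whole family were separate.

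Histamine receptors summed to 10.9 TPM in replicate 1 and 10.2 TPM in replicate 2, and 3 of the 4 were detected. Hrh3, the Gi-coupled receptor of axon terminals that limits the release of histamine and of other transmitters, had 7.25 TPM in replicate 1 and 6.57 TPM in replicate 2, from 333 and 311 counts. Hrh2, the Gs-coupled receptor of stomach and brain, had 1.99 and 1.83 TPM. Hrh1, the Gq-coupled receptor through which older antihistamines cause drowsiness, had 1.65 and 1.77 TPM. Hrh4, a receptor of immune cells, had 0 counts in both libraries and in both tables, which allows up to 3 counts in each. All 3 neighbouring pairs of this family were separate, Hrh2 and Hrh1 by the least. Hrh2 and Hrh1 were not separate in the FASTQ-based table, where Hrh2 had 2.95 and 2.62 TPM and Hrh1 2.95 and 2.47 TPM. By mean their order was kept there, at 2.78 and 2.71 TPM. It turned in protein-coding transcripts of that table alone, at means of 1.23 TPM for Hrh2 and 2.71 TPM for Hrh1.

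Hrh2 and Hrh3 both had RNA assigned outside their coding transcripts. Hrh2-203, annotated as a target of nonsense-mediated decay, held 55.1 ± 14.7% of the gene's FASTQ-based TPM and 64.4 ± 7.66% of its alignment-based TPM (SD, n = 2). Compared with Hrh2-202, of 421 residues, it splices into an extra exon of 145 bases and ends after 371 residues. Hrh2-201 has 397 residues. The start of that exon is shown up to the stop codon, in capitals, as the sequence that sets it apart (chr13:54222877-54222919, plus strand, mm10, from the GENCODE M21 transcript):
Hrh2-203 extra exon: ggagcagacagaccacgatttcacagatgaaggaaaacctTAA
For Hrh3, coding transcripts gave 79.0% and 86.5% of the FASTQ-based TPM in replicates 1 and 2, and all of that was Hrh3-201. A transcript with a retained intron, Hrh3-206, held 17.2 ± 5.32% of the FASTQ-based TPM and 16.5 ± 4.90% of the alignment-based TPM. Total RNA holds unspliced RNA as well as finished messages, and which of these the retained intron reads came from was not tested.

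Across all 23 detected receptors, Htr7, Hrh3 and Hrh2 were the 3 with under 90% of their TPM in protein-coding transcripts in both tables and both libraries. For 15 of the 23, protein-coding transcripts held all of it throughout, 9 of these having 1 annotated transcript only. The remaining genes, Htr2c, Drd1, Adra1a, Adra1b and Adrb1, lay between or differed by table. Many of these receptors are encoded in a single exon: 12 of the 32 have 1 coding exon, of which 9 were detected, and 20 have more, of which 14 were detected.

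**Figure D2:**
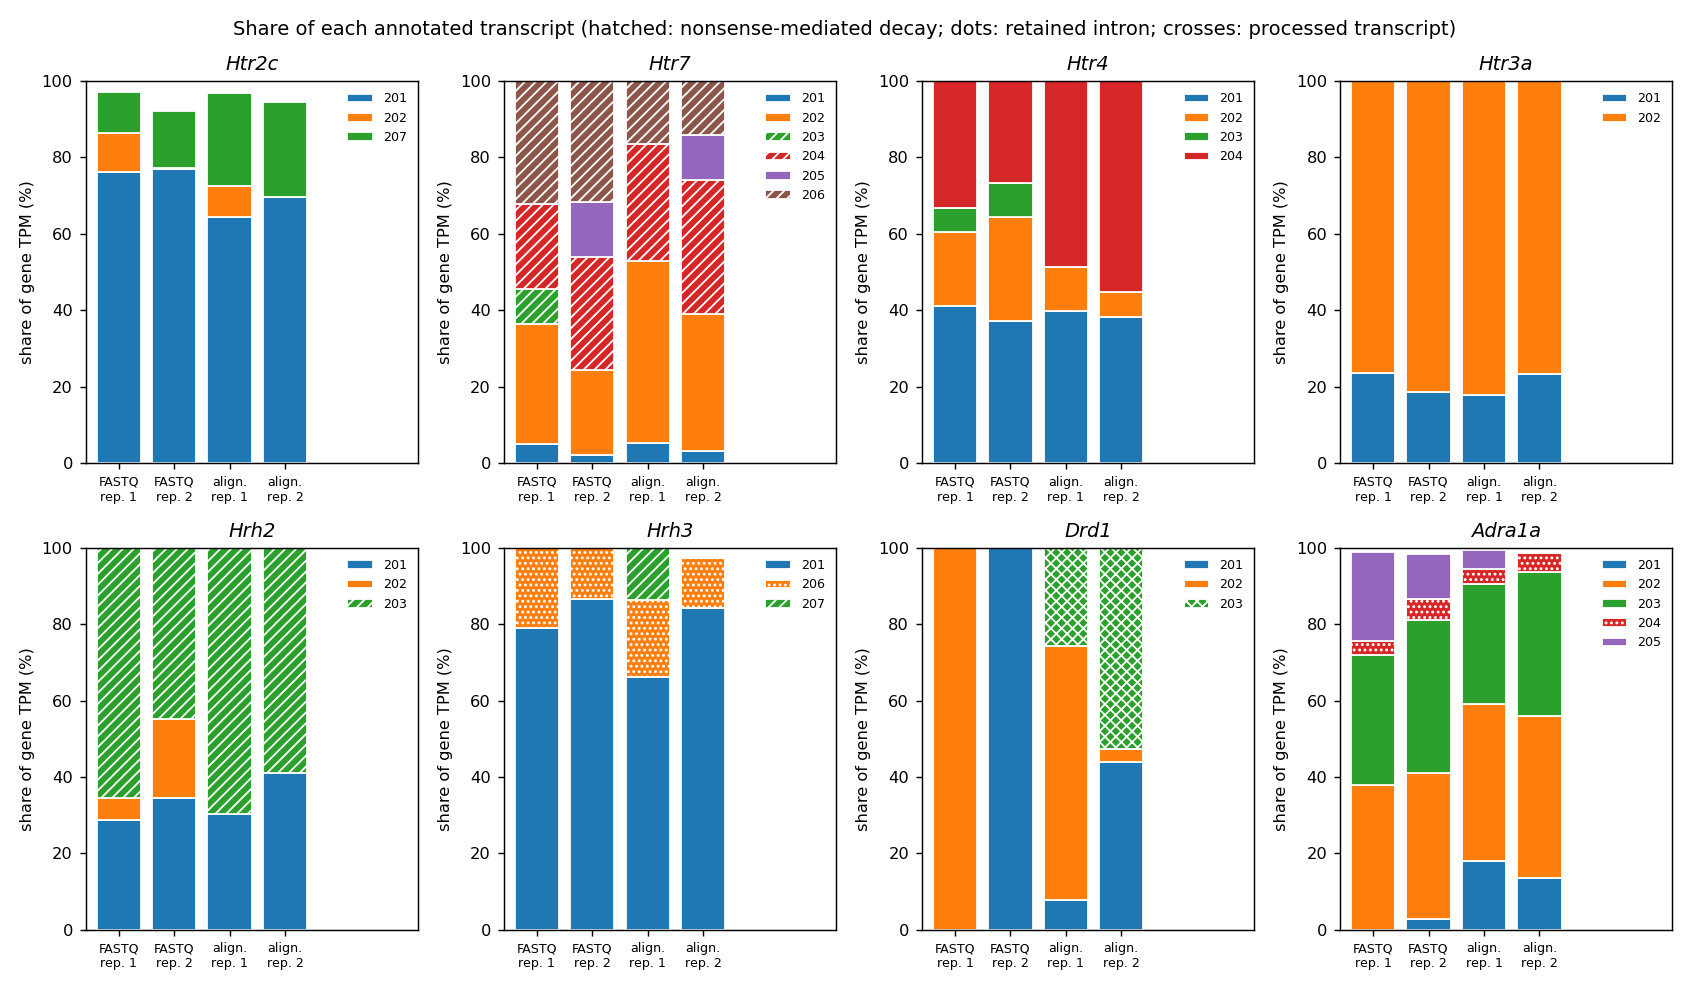
Share of each gene's TPM held by each annotated transcript for 8 receptor genes, in the FASTQ-based table (2 left bars) and the alignment-based table (2 right bars), each with replicate 1 before replicate 2; transcripts with small shares are left out, so bars can end below 100%. Htr3a-202 held about the same share in all 4 bars, at 79.0 ± 3.47% and 79.5 ± 3.91% in the FASTQ-based and the alignment-based table, while the transcripts of Drd1 changed place between libraries and tables.

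When the receptors were grouped by textbook coupling class, the Gq class held the largest share of the summed TPM with the fewest genes of the G protein classes. Its 7 genes, 6 of them detected, held 38.8% in replicate 1 and 43.2% in replicate 2, a mean of 41.0 ± 3.08% (SD, n = 2). The 13 Gi-coupled genes, 8 detected, held 33.3% and 29.6%, a mean of 31.5 ± 2.62%. The 9 Gs-coupled genes, 7 detected, held 22.6% and 21.7%, a mean of 22.2 ± 0.661%. The order Gq, Gi, Gs was the same in both libraries. The ion channel class held 2.71 ± 0.151%, and Htr5b, in no class, 2.64 ± 0.0517%. The share of Gq rested on Adra1d and Htr2c, whose values made up most of the class sum of 48.8 TPM in replicate 1 and 55.3 TPM in replicate 2.

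Gq led the adrenergic family, as above, and also the serotonin family. Serotonin receptors were more even, with 33.4 ± 4.59% Gq, 28.1 ± 2.01% Gi, 26.7 ± 2.73% Gs and 5.99 ± 0.180% ion channel. In replicate 1 alone these first 3 classes were 30.2%, 29.5% and 28.6%, and in replicate 2 alone 36.6%, 26.7% and 24.7%, so the lead of Gq among serotonin receptors was small without replicate 2. Dopamine receptors were led by Gs, at 67.5 ± 5.02%, against 32.5 ± 5.02% for Gi. Histamine receptors were led by Gi, through Hrh3, at 65.6 ± 1.40%, with 18.1 ± 0.198% Gs and 16.3 ± 1.59% Gq. By amine, serotonin receptors held 45.2 ± 1.16% of the summed TPM, adrenergic 41.6 ± 1.12%, histamine 8.30 ± 0.519% and dopamine 4.90 ± 0.482%.

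**Figure D3:**
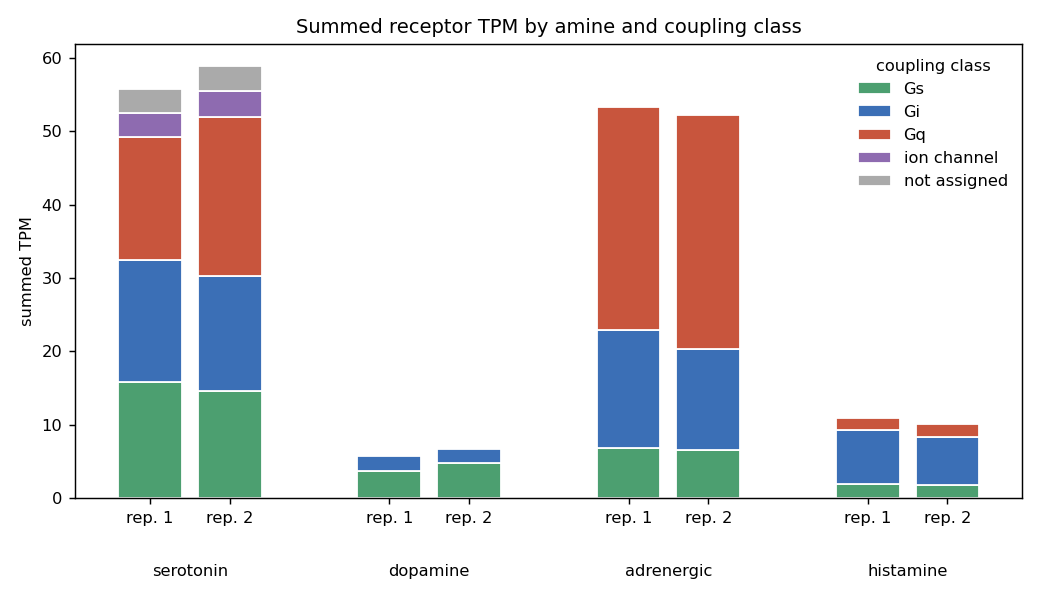
Summed TPM of the receptor genes by amine, stacked by coupling class, with one bar for each library (rep. 1 and rep. 2). Serotonin and adrenergic receptors reach similar sums, 55.8 and 59.0 TPM against 53.2 and 52.3 TPM, and most of the adrenergic bars is the Gq class.

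The libraries were then compared gene by gene, by a two-sided exact binomial test on counts with Benjamini-Hochberg adjustment over the 18512 genes whose counts averaged 10 or more. This test compares the reads of 2 libraries, not conditions, and shows how far each level can be read beyond counting error. Of the 25 receptors tested, 2 were called at an adjusted p under 0.05, or 8.00%, against 8.77% of all genes tested. None of the 25 was also 2-fold apart, against 0.945% of all genes tested, and 5 had an unadjusted p under 0.05. The receptors thus differed between the libraries about as often as genes in general. Their median absolute log2 ratio was 0.12, against 0.10 for all genes tested, with a median count of 266 against 374. The other 7 receptors had too few counts to test.

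Htr2c was the receptor with the clearest difference. It was lower in replicate 1, with a log2 ratio of replicate 1 over replicate 2 of -0.44, an exact 95% counting interval of -0.54 to -0.34 and an adjusted p of 1.34e-15 by the binomial test with Benjamini-Hochberg adjustment. The choroid plexus markers moved with it: of the 9, all tested, 8 were called lower in replicate 1 and 0 higher, none was at 0 in either library, and the median log2 ratio was -2.55. Ttr, the transthyretin gene of choroid plexus, had 8.02 TPM in replicate 1 and 340.07 TPM in the library labelled male, replicate 2. Kl, also of choroid plexus, had 1.76 and 2.08 TPM and was not called. Their part in the Htr2c difference was not tested. Htr2c is also X-linked, and the libraries differed in Xist; Maoa and Maob, X-linked genes of amine breakdown, had log2 ratios of 0.01 and 0.22 and were not called.

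Adra2a was higher in replicate 1, with a log2 ratio of 0.33, an interval of 0.15 to 0.52 and an adjusted p of 0.00745 by the same test. Its FASTQ-based levels were in the same order, 10.2 TPM in replicate 1 and 7.70 TPM in replicate 2. The next 3 receptors by p did not pass the adjustment. Drd5 had a log2 ratio of -0.43 with an adjusted p of 0.123, Htr7 of 0.25 with 0.139 and Htr1a of 0.17 with 0.226 (two-sided exact binomial test, Benjamini-Hochberg). Intervals were wide for low genes: that of Htr1d, with 27 and 25 counts, ran from -0.84 to 0.84, so a difference of such a size was not detectable at this depth.

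**Figure D4:**
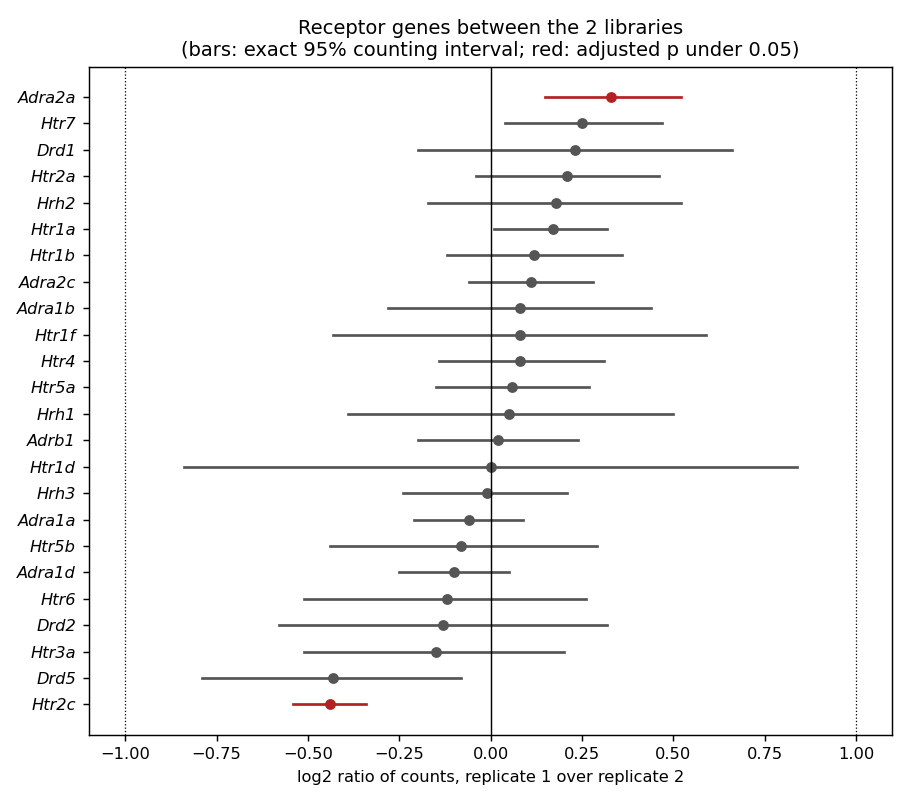
Log2 ratio of counts, replicate 1 over replicate 2, for 24 of the receptors tested, with exact 95% counting intervals; dotted lines mark 2-fold. Htr2c (-0.44) and Adra2a (0.33), in red, are the receptors called at an adjusted p under 0.05.

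The FASTQ-based table, made from the same reads by another route, gave a higher TPM for every receptor compared, except Drd1 in replicate 2. Over the 24 receptors compared, the median log2 of FASTQ-based over alignment-based TPM was 0.54 in replicate 1 and 0.55 in replicate 2, against 0.63 in both libraries over all genes compared. The lowest value was -0.42, for Drd1 in replicate 2. In all, 1 receptor of the 24 was at least 2-fold apart in both libraries, against 18.9% of all genes compared.

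The genes that make and clear the amines were read beside the receptors. Of 9 genes for synthesis and vesicle loading, 2 were detected: Ddc, the shared decarboxylase, at 3.48 ± 0.714 TPM, and Slc18a2, the vesicular amine transporter, at 3.48 ± 0.283 TPM (SD, n = 2). The enzymes that define the amine cells were under the limit in the alignment-based table, with Hdc of histamine cells at 0.600 ± 0.0424 TPM, Tph2 of serotonin cells at 0.570 ± 0.0849 TPM and Th of catecholamine cells at 0.385 ± 0.0212 TPM. Tph1, the serotonin enzyme outside the brain, had 0.235 ± 0.0212 TPM, and Dbh, which makes noradrenaline, 0.155 ± 0.0919 TPM. Pnmt, which makes adrenaline, was at 0.0650 ± 0.0354 TPM and Slc18a1, the other vesicular transporter, at 0.0250 ± 0.00707 TPM. Each of these enzymes was under 1 TPM in both libraries of the alignment-based table. In the FASTQ-based table Hdc passed the limit, at 1.35 TPM in replicate 1 and 1.88 TPM in replicate 2, and Th had 0.824 and 1.63 TPM.

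Uptake differed by type of carrier. The high-affinity carriers of amine axons were not detected: Slc6a3 for dopamine had 0.215 ± 0.0495 TPM, Slc6a4 for serotonin 0.110 ± 0.0990 TPM, and Slc6a2 for noradrenaline 0.10 TPM in each library. The low-affinity carrier Slc29a4, the plasma membrane monoamine transporter, had 41.77 TPM in replicate 1 and 42.84 TPM in replicate 2, above every receptor. Slc22a3, an organic cation transporter, had 1.35 ± 0.346 TPM, while its relative Slc22a2 had 0.185 ± 0.148 TPM. All 4 breakdown enzymes were detected, among them the monoamine oxidases Maoa, at 14.4 ± 0.156 TPM, and Maob, the lowest, at 3.74 ± 0.417 TPM. None of the synthesis, uptake and breakdown genes that were tested was called between the libraries.

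By mean TPM the downstream genes listed were above the highest receptor, except Gna14, Grk4, Grk5 and Ppp1r1b. Of 10 G protein alpha subunit genes, 9 were detected, the highest being Gnas, the Gs alpha subunit, at 812 ± 8.80 TPM and the lowest Gna14, of the Gq class, at 0.650 ± 0.0141 TPM. In this list Gnal was called higher and Gnao1 lower in replicate 1, with log2 ratios of 0.12 and -0.05 and adjusted p of 2.22e-04 and 0.00536 (two-sided exact binomial test, Benjamini-Hochberg). All 7 receptor kinases and arrestins were detected, from Arrb1, a beta-arrestin, at 67.4 ± 0.262 TPM to Grk4, a receptor kinase, at 2.66 ± 0.481 TPM. All 5 receptor partners were detected, from Hint1 at 167 ± 7.90 TPM to Ppp1r1b at 9.09 ± 1.77 TPM. Ppp1r1b, the phosphatase inhibitor DARPP-32 that carries dopamine signals in the striatum, was called lower in replicate 1, with 7.84 TPM there and 10.35 TPM in replicate 2, a log2 ratio of -0.40 and an adjusted p of 0.0128 by the same test.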

How the data were processed

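Total RNA from hippocampus at 10 days was measured in 2 libraries of 1 group. The authors deposited expected counts, TPM and TPM interval bounds (a score here) per gene and transcript from alignments to mm10 with GENCODE M21, and a second transcript table of estimated counts and TPM from the FASTQ reads, per the file headers and the deposited descriptions. Tools and strand use in counting were not given in the sources used here. Reads from genes that overlap on opposite strands may therefore be mixed. TPM was scaled over all deposited rows. Rows naming no annotated gene, spike-ins included, took 0.358% and 0.359% of the counts and entered neither the library sizes nor any test.

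Expected counts were rounded and scaled by TMM (edgeR 4.0.16, R 4.3.3). The libraries were compared over genes averaging 10 counts or more by an exact binomial test (two-sided), adjusted by Benjamini-Hochberg over all of them and called at an adjusted p under 0.05. Log2 ratios are replicate 1 over replicate 2 with a prior count of 0.5, and route ratios use a pseudocount of 0.1 TPM over genes with at least 1 TPM by either route. Intervals are exact at 95%, and a count of 0 allows 3 counts. Both cover counting error only, since no molecular identifiers are named. With 1 group, a p-value measures the difference between 2 libraries. Coupling classes are textbook ones. DESeq2 1.42.0 size factors, other filters, the FASTQ-based table, protein-coding transcripts alone and single libraries were tried as alternatives. Some single genes are not reported here, though counts and sums include all members. Every other receptor is given its level, and within each amine the detected ones are described singly. Receptors called between libraries, synthesis and uptake genes, and the highest and lowest of each other list are named. Other named genes were chosen after their values were seen. The members and lists were chosen with earlier results of these data known. Alleles of the hybrid and RNA editing were not analysed here. Python 3.11.15 was used with pandas 2.3.3, scipy 1.17.1, matplotlib 3.10.9 and numpy 2.4.6.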

Additional observations from a re-analysis of the deposited data

How the results depend on the processing

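The number of detected receptors was 24 in the FASTQ-based table, in its protein-coding transcripts alone, after rescaling over nuclear protein-coding genes and at 0.5 TPM, 17 at 2 TPM, and 23 to 24 when either library was left out. Htr2c, Drd5, Adra1d and Hrh3 led their amines in every setting run. Of the 76 pairs of detected receptors within an amine, 74 kept their order in the FASTQ-based table, 69 in its protein-coding transcripts, 76 after rescaling, 68 by counts without regard to length, and 70 to 73 in single libraries.

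The share of Gs was 23.3% in the FASTQ-based table, 19.7% in its protein-coding transcripts and 18.9% by counts, that of Gi 35.3% by counts, and that of the ion channel 3.01% in FASTQ-based protein-coding transcripts and 1.65% by counts. The order Gq, Gi, Gs held in each of these. Leaving out either library gave 38.8% to 43.2% for Gq, 29.6% to 33.3% for Gi, 21.7% to 22.6% for Gs and 2.60% to 2.82% for the ion channel.

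Adra2a and Htr2c were the 2 receptors called under all 6 alternatives of the test, and 0 were 2-fold apart in any. Among these, a larger prior count alters only the log2 ratio and could not change a call at an adjusted p under 0.05. Other count filters leave each unadjusted p as it was and alter only the adjustment. Of the recomputed log2 ratios 143 kept their direction and call and 1 changed sign, that of Htr1d, at 0.00 under total counts against -0.00. Of the recomputed levels 82 moved by more than the spread and 78 did not. Single-library levels lie within the spread by construction, so all of them are among the 78 and say nothing about stability. Both the FASTQ-based table and rescaling raise nearly all levels (Htr2c to 23.1 and 36.5 TPM). No paired analysis was possible because there is 1 group. Receptors under about 100 counts carry wide intervals, so differences among them are limited by depth.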

Other observations

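Of the 32 receptor genes, 11 overlap another annotated gene and 9 of these have one on the opposite strand. Htr1b shares its locus with the antisense gene D430036J16Rik, which had 55.0 counts in replicate 1 and 59.0 in replicate 2, against 318 and 271 for Htr1b. Adra1d lies opposite Gm14285, which had 1.97 TPM in replicate 1 and 2.65 TPM in replicate 2, against 19.37 and 20.66 TPM for Adra1d. Htr2b lies opposite Psmd1, a proteasome subunit gene with 3669 and 3229 counts, and had 3 and 0 counts itself. Whether exons of these genes overlap was not checked here, so these counts do not show whether reads of opposite strands were mixed. Htr2c holds 8 small RNA genes within its bounds, 7 of them miRNA genes, and all had 0 counts except Gm24627, with 1.00 and 0. These entries are precursor genes, and mature miRNAs were not measured here.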
